A study of Mus musculus with 6 samples.

Results

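The sperm-egg fusion factors described here are 6 genes, Izumo1, Spaca6, Tmem81, Tmem95, Dcst1 and Dcst2. They were taken by symbol from the gene tables of a testis RNA-seq study, where they are 6 of 34144 gene rows, and all 6 were found and passed the low-count filter that left 21002 genes for testing. The study compared 3 wild-type mice with 3 Nsun7 knockout mice, all C57Bl/6J and 3 months old. Nsun7 encodes a protein of the NOP2/Sun family of RNA methyltransferases. Each library came from 1 mouse and was made from total RNA of the seminiferous tubules of decapsulated testes, which mix germ cells of all stages with somatic cells, after depletion of ribosomal and globin RNA. How the knockout allele was made is not given in the labels.

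Fusion of the sperm and egg membranes follows acrosomal exocytosis, which exposes proteins of the inner sperm membranes. IZUMO1 is the sperm ligand of the egg receptor JUNO (gene Izumo1r). SPACA6 and TMEM81 are immunoglobulin-domain membrane proteins that form a complex with IZUMO1 on the sperm surface. TMEM95 is a small sperm membrane protein that binds eggs, and DCST1 and DCST2 are multi-pass membrane proteins of the DC-STAMP-like family. Male mice that lack Izumo1, Spaca6, Tmem95, Dcst1 or Dcst2 make motile sperm that fail to fuse with eggs. The genes are transcribed in male germ cells, with the proteins acting much later on mature sperm, so testis RNA is a measure of their messengers and not of fusion.

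The libraries held between 23480448 and 28558865 estimated counts. Nsun7 itself was measured at 36.6, 35.7 and 37.2 CPM (counts scaled to a common library total with TMM factors) in wild type and at 18.0, 17.8 and 25.2 CPM in the knockout. Its knockout mean was 55.7% of wild type (log2 fold change -0.84, edgeR adjusted p = 0.016), so the targeted gene was lower in all 3 knockout libraries but was still counted. The first wild-type and the third knockout library stood farthest apart on the first principal component (scores -38.3 and 49.2, 35.5% of the variance). That component set the genotypes apart, with scores of -38.3, -21.3 and -6.39 in wild type and 0.981, 15.9 and 49.2 in the knockout. The 2 libraries are thus the ends of that order and are called the end libraries below. The RNA component Rmrp took 4.85% of the counts of the first wild-type library and between 0.985% and 2.48% of those of the other libraries. Biological replicates are mice, and the labels do not say whether mice of the 2 genotypes were littermates.

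In edgeR's quasi-likelihood test of genotype 0 of the 6 fusion genes passed an adjusted p of 0.05, against 0.567% of all tested genes (119 of 21002). Of all tested genes 0.233% were called higher and 0.333% lower. None passed an unadjusted p of 0.05 either, against 8.39% of all tested genes, and the lowest unadjusted p among the 6 was 0.194 by edgeR. In CPM, the wild-type and knockout ranges overlapped for all 6, beside 14.3% of all tested genes with ranges that did not overlap. With 6 members, counts of 0 do not set them apart from these shares. Log2 fold changes of knockout over wild type were above 0 for 3 genes and below 0 for 3, with a median of 0.01 beside 0.015 for all tested genes. The median size of the change, regardless of sign, was 0.10 for the 6 and 0.16 for all tested genes. By mean TPM the members ranked above 53.6% to 85.3% of tested genes, so these medians were not matched for level. The 95% intervals of the 6 together ran from -0.46 to 0.51, that is, from 0.725-fold to 1.42-fold. A change beyond those folds lies outside the interval of every member, and the intervals of single members, given with each gene, are narrower. In tubule RNA, fewer cells of a type and less RNA per cell cannot be told apart.

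**Figure D1:**
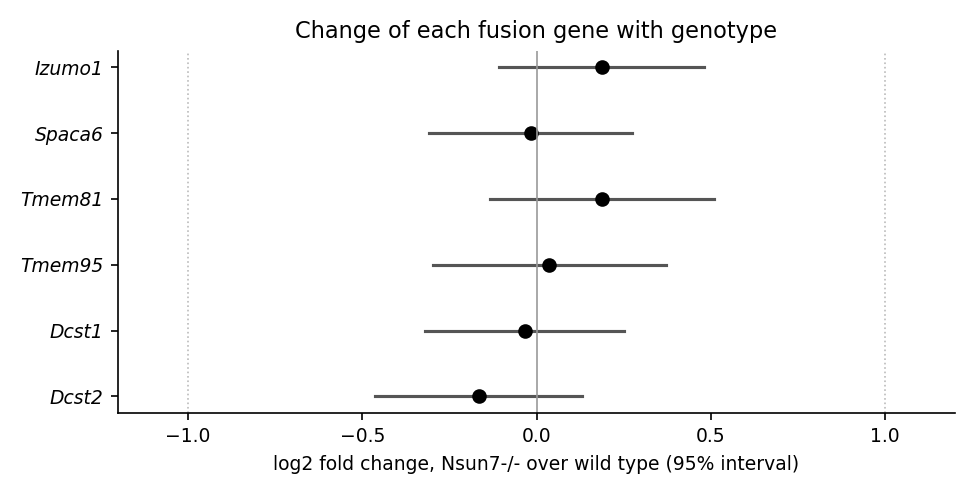
Log2 fold change of each fusion gene in Nsun7 knockout over wild-type testis (points) with its 95% interval from edgeR (lines). The solid vertical line marks no change and the dotted lines a doubling and a halving; every interval crosses 0, and they run from -0.46 to 0.51.

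The ligand and its partners come first. Izumo1, on chromosome 7, was measured at 30.9, 38.2 and 35.9 CPM in wild type and at 33.9, 40.8 and 44.8 CPM in the knockout. The first mouse was the lowest of its genotype in both groups, and the lowest knockout library lay below 2 of the 3 wild-type libraries. The means were 35.0 ± 3.73 (SD, n = 3) and 39.8 ± 5.53 CPM (SD, n = 3). The log2 fold change was 0.19 (SE 0.14, 95% interval -0.11 to 0.48, edgeR adjusted p = 0.694), the highest of the 6 together with Tmem81. No alternative fit gave Izumo1 an adjusted p below 0.361. Without the 2 end libraries, a choice made after seeing the data, its log2 fold change was 0.01. Those libraries held its lowest wild-type and its highest knockout value, so leaving both out brings the genotypes closer by construction.

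Spaca6, on chromosome 17, encodes the partner without which sperm also fail to fuse. It was measured at 24.9, 29.4 and 30.2 CPM in wild type and at 24.9, 27.0 and 31.6 CPM in the knockout. Those groups lay over one another, with means of 28.2 ± 2.86 (SD, n = 3) and 27.9 ± 3.39 CPM (SD, n = 3). The log2 fold change was -0.02 (SE 0.14, 95% interval -0.31 to 0.27, edgeR adjusted p = 0.977). Its sign is not settled, since it turned above 0 when any of 4 single libraries was left out.

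Tmem81, on chromosome 1, encodes the third protein of the complex. It was measured at 13.4, 17.5 and 13.7 CPM in wild type and at 15.0, 18.0 and 17.8 CPM in the knockout. The second wild-type mouse lay among the knockout values, and the other wild-type mice lay below all of them. The means were 14.9 ± 2.27 (SD, n = 3) and 16.9 ± 1.71 CPM (SD, n = 3). Its log2 fold change was 0.19 (SE 0.15, 95% interval -0.13 to 0.51, edgeR adjusted p = 0.715). It was 0.31 without the second wild-type mouse, 0.11 without the first, and 0.08 without both end libraries.

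Tmem95, on chromosome 11, was the member with the fewest counts, from 179 per library upwards. It was measured at 8.83, 8.76 and 6.90 CPM in wild type and at 8.85, 8.25 and 8.02 CPM in the knockout. The third wild-type mouse was the lowest library, and the knockout values lay within the wild-type range but for the first mouse, which exceeded it slightly. The means were 8.16 ± 1.10 (SD, n = 3) and 8.38 ± 0.429 CPM (SD, n = 3). The log2 fold change was 0.04 (SE 0.16, 95% interval -0.30 to 0.37, edgeR adjusted p = 0.954).

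Dcst1 and Dcst2, neighbours on chromosome 3, had the highest counts, up to 2453 per library. Dcst1 was measured at 67.3, 89.3 and 73.4 CPM in wild type and at 76.2, 81.9 and 66.5 CPM in the knockout. Dcst2 was measured at 76.0, 95.1 and 74.7 CPM in wild type and at 77.6, 80.3 and 61.3 CPM in the knockout. For both genes the second wild-type mouse was the highest library and the third knockout mouse the lowest. Dcst1 had means of 76.6 ± 11.3 (SD, n = 3) and 74.9 ± 7.80 CPM (SD, n = 3) and a log2 fold change of -0.03 (SE 0.13, 95% interval -0.32 to 0.25, edgeR adjusted p = 0.951). Dcst2 had means of 81.9 ± 11.4 (SD, n = 3) and 73.1 ± 10.2 CPM (SD, n = 3) and a log2 fold change of -0.17 (SE 0.14, 95% interval -0.46 to 0.13, edgeR adjusted p = 0.725). The interval of Dcst2 holds 0, and its fold change was -0.05 without the second wild-type mouse and -0.06 without the third knockout mouse.

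**Figure D2:**
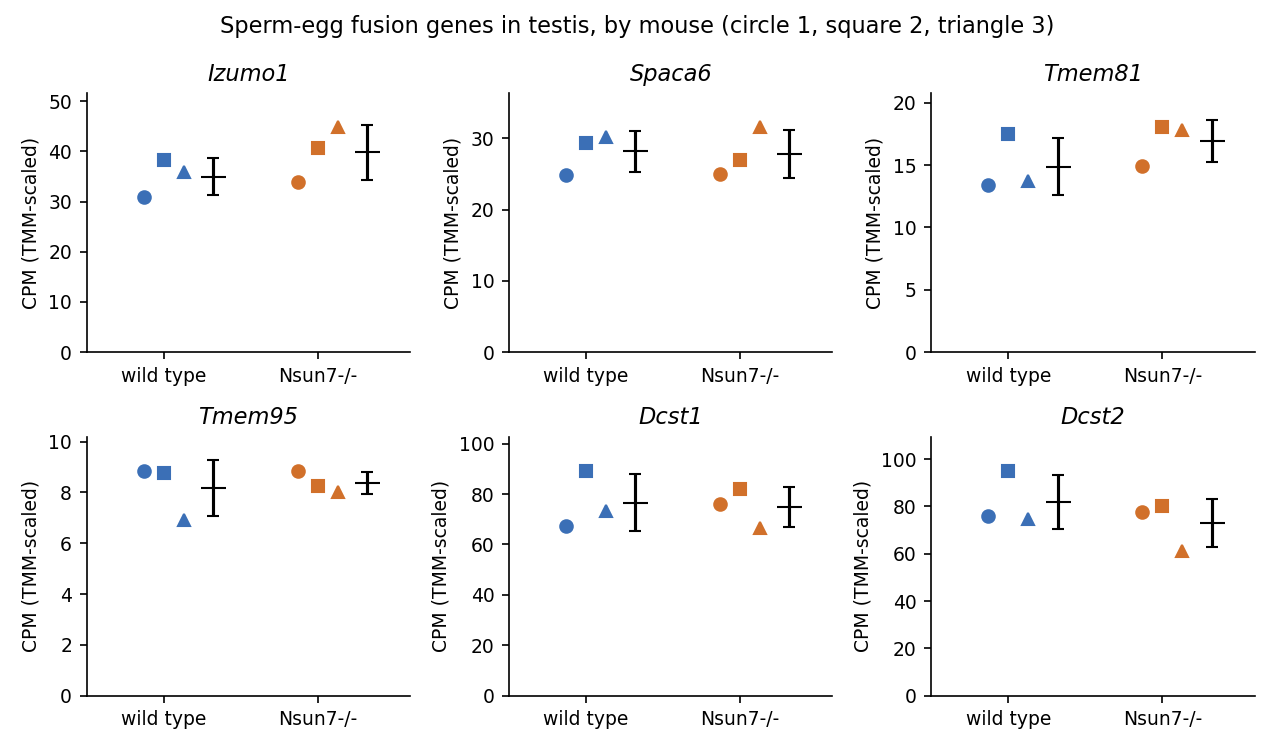
TMM-scaled CPM of the 6 fusion genes in every library, with wild type in blue, Nsun7 knockout in orange, and the mouse number given by the point's shape; the black bar beside each group is the mean with its SD (n = 3). In each panel the ranges of the genotypes overlap, and for Dcst1 and Dcst2 the highest point is the second wild-type mouse (89.3 and 95.1 CPM).

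The Dcst pair is arranged head to head. In the RefSeq table for GRCm38.p6 the start sites of Dcst1 (minus strand) and Dcst2 (plus strand) lie 65 bases apart. The stretch between them, chr3:89365254-89365318, is shown on the plus strand because it lies upstream of both RefSeq start sites. Dcst1 reads off to the left and Dcst2 to the right.
Dcst1-Dcst2: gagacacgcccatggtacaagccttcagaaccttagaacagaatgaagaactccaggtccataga
None of the promoter motifs named further on was found in it on either strand. In GENCODE M21 the gene spans of Dcst1 and Dcst2 overlap on opposite strands, so by that annotation the stretch is not upstream of both genes. Their main transcripts share 0 exon bases. Across the 6 libraries Dcst1 and Dcst2 had a Pearson r of 0.87 in log2 CPM, the highest among the 15 pairs of members. The libraries share their depth and scaling in every such pair, and neither the kit nor the counting is stated to keep strand.

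The next pair of members in that order was Izumo1 and Tmem81, with r = 0.86 over the 6 libraries, followed by Izumo1 and Spaca6 with r = 0.75. Spaca6 and Tmem81 had r = 0.43, so the 3 genes of the complex did not track one another equally. The lowest value was that of Spaca6 and Tmem95, r = -0.62. With 6 libraries these values are descriptions without a test.

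The 250 bases upstream of the RefSeq start sites were searched on both strands for short promoter motifs. The cAMP response element, TGACGTCA, and its core TGACGT are the letters bound by the CREM and CREB family, and CREM is a main activator of genes in round spermatids. Izumo1 and Tmem95 are shown because they are the members whose windows hold the core, which is in capitals; each reads 5′ to 3′ in the gene's direction and ends at the base before the start site.
Izumo1, chr7:45621561-45621810, plus strand: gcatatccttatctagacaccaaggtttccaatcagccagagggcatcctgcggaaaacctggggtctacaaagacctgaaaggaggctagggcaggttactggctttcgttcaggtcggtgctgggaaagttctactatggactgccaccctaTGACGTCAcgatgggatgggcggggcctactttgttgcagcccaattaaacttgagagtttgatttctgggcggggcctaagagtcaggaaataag
Tmem95, chr11:69878056-69878305, minus strand: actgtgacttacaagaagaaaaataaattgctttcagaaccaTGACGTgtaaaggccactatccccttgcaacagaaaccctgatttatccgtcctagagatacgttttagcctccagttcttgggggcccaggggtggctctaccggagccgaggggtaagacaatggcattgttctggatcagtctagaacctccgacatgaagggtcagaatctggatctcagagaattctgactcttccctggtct
In Izumo1 the full element lies 96 to 89 bases before the start, and in Tmem95 the core lies 208 to 203 bases before it. Among 32851 promoter rows of the same table, 1.55% hold TGACGTCA and 6.47% hold TGACGT, a count that includes the full element. GTTGCC, an arm of the X-box bound by RFX factors, was found upstream of Spaca6 alone among the members and in 10.4% of all rows. TATAAA was found in 0 of 6 members and in 12.4% of all rows. GGGCGG was found in Izumo1 and Dcst2 and in 32.7% of all rows, and CCAAT in Izumo1 and in 33.8%. A match says only that these letters are in the window.

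Levels can be compared between genes only per length, for which the deposited TPM (transcript abundance per length) was used. Spaca6 ranked first among the 6 in all 6 libraries, with 34.6, 50.4 and 58.5 TPM in wild type and 48.4, 51.7 and 73.8 TPM in the knockout. Dcst2 followed with 31.2, 49.7 and 44.2 TPM in wild type and 43.4, 48.9 and 43.9 TPM in the knockout. Dcst1 had 27.1, 45.7 and 42.7 TPM in wild type and 41.7, 49.0 and 47.6 TPM in the knockout. These 3 neighbours overlapped in both genotypes, and Dcst2 exceeded Dcst1 in 4 of 6 libraries. Izumo1 had 19.3, 30.4 and 32.4 TPM in wild type and 28.8, 38.5 and 49.0 TPM in the knockout, below Dcst1 in 5 of 6 libraries. Tmem81 had 7.39, 12.3 and 10.9 TPM in wild type and 11.3, 14.8 and 17.1 TPM in the knockout. The step from Izumo1 to Tmem81 was between 2.47-fold and 2.97-fold in every library, and it is the one step in this order where neighbouring genes did not overlap in either genotype. Tmem95 had 7.44, 9.45 and 8.46 TPM in wild type and 10.3, 10.4 and 11.9 TPM in the knockout, below Tmem81 in 5 of 6 libraries.

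All 6 TPM means were higher in the knockout. The TPM of Tmem95 did not overlap between the genotypes, while its CPM did. The share of all genes that do the same in TPM was not computed, so neither can be read as particular to the members. TPM sets every library to the same total, and Rmrp took between 15.7% and 33.3% of that total in wild type and between 11.4% and 17.5% in the knockout. On the log2(TPM + 1) scale the median of all genes was itself 0.24 higher in the knockout. After centring each library on its median, the log2 differences were 0.20 for Izumo1, 0.18 for Tmem81, 0.04 for Tmem95, -0.01 for Spaca6, -0.00 for Dcst1 and -0.14 for Dcst2. Those values lie close to the fold changes from the counts, and no member passed the test on any TPM scale.

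The first rank of Spaca6 depends on which of its transcripts are counted. Restricted to transcripts annotated as protein-coding, Spaca6 had 5.36, 7.52 and 9.73 TPM in wild type and 11.4, 8.70 and 13.1 TPM in the knockout. The order then became Dcst2, Dcst1, Izumo1, Tmem81, Tmem95 and Spaca6. Dcst2 exceeded Dcst1 in 6 of 6 libraries on that count, and Tmem95 exceeded Spaca6 in 3 of 6, so the last places were not separated.

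**Figure D3:**
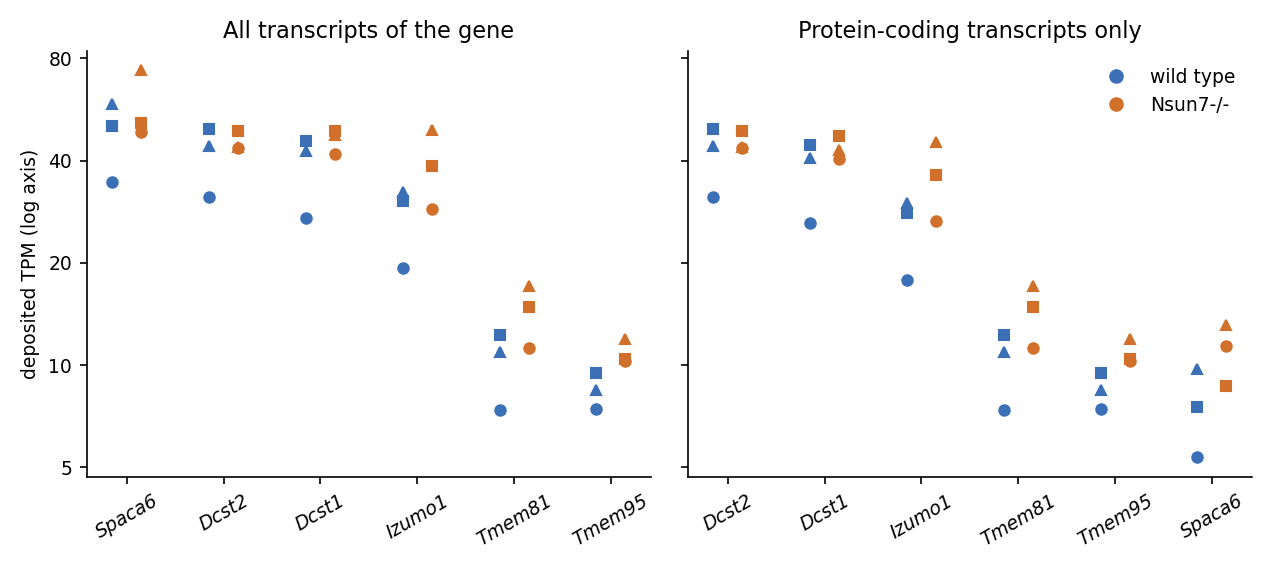
Deposited TPM of the 6 fusion genes in each library on a log axis, for all transcripts of a gene (left) and for protein-coding transcripts alone (right), ordered by level; blue is wild type, orange is Nsun7 knockout, and shapes are mouse numbers. Spaca6 moves from first place (34.6 to 73.8 TPM) to last (5.36 to 13.1 TPM), while Dcst2 and Tmem95 have 1 transcript each and keep their values.

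The 6 genes have 28 annotated transcripts in the per-sample tables, of which 25 had a count and 20 passed the low-count filter. By edgeR 0 of the 20 were called (adjusted p between 0.932 and 0.994), against 0.0272% of the 58773 transcripts tested. On simulated counts the transcript test recovered 6% of transcripts changed by 1 on the log2 scale and 40% of those changed by 2. With so few recovered, the 0 calls cannot separate unchanged transcripts from changed ones. At an unadjusted p of 0.05 edgeR called 0 of the 20, against 4.76% of all tested transcripts, and the lowest unadjusted p was 0.0641.

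Spaca6 had 16 of the 28 transcripts. Those annotated as protein-coding took between 14.9% and 23.6% of its TPM, and between 20.9% and 26.4% of its estimated counts. The most abundant by TPM was Spaca6-203, a processed transcript of 494 bases without a coding sequence, with 26.1% to 32.2% in the 6 libraries. By estimated counts Spaca6-209 exceeded it in all 6 libraries, with 124 to 241 counts against 88.2 to 156. Spaca6-209, of 1073 bases with a coding sequence of 1017 bases, took 15.5%, 14.9% and 16.6% in wild type and 16.1%, 16.8% and 17.8% in the knockout, with ranges that overlap. The coding share of the first knockout library stood above the rest because Spaca6-216, at 7.44% there, was estimated in that library alone. By type, transcripts marked for nonsense-mediated decay held 20.0% to 28.5%, processed transcripts 27.4% to 33.6% and retained-intron transcripts 22.0% to 32.1%. The row of the gene symbol is the sum of these 16 transcripts. The microRNA genes Mir99b, Mirlet7e and Mir125a lie within the span of Spaca6 on the same strand as genes of their own.

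Of 10 transcript shares that could be tested, 1 had ranges that did not overlap between the genotypes, beside 10.8% of 45703 such shares over all tested genes. Spaca6-207, of 504 bases and marked for nonsense-mediated decay, took 15.6%, 11.9% and 15.4% of Spaca6 TPM in wild type and 9.86%, 7.72% and 10.7% in the knockout. The exact permutation test gave p = 0.1, the smallest that 3 against 3 libraries allow, and 0.5 after adjustment over the 10 shares. The transcript rested on 27.2 to 62.0 estimated counts per library, and its own log2 fold change was -0.66 (SE 0.30, edgeR adjusted p = 0.932). The share test could not have passed 0.05 with these numbers of libraries.

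Tmem81 has 2 transcripts, both with a coding sequence of 777 bases. The minor one, Tmem81-202, took 11.8%, 14.6% and 25.1% of its TPM in wild type and 17.4%, 27.4% and 27.5% in the knockout. The third wild-type mouse lay among the knockout values, and the exact permutation p was 0.2 (0.5 adjusted). The log2 fold change of Tmem81-202 was 0.70 (SE 0.38, edgeR adjusted p = 0.932).

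Izumo1 and Dcst1 were each carried by 1 transcript. Izumo1-201 took 91.9% to 94.6% of Izumo1 TPM, and the rest fell on Izumo1-202, a retained-intron transcript (5.45% to 8.15%) whose annotated span runs into Rasip1 on the same strand. Dcst1-201 took 90.0% to 97.5% of Dcst1 TPM, with the lowest share in the third knockout library, where Dcst1-205 reached 5.58%. Dcst2 and Tmem95 have 1 annotated transcript each. The length of the Tmem95 transcript was 1193 bases in the deposited tables and 531 bases in GENCODE M21, while the other 27 member transcripts had the same length in both, so its TPM rests on a longer model.

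**Figure D4:**
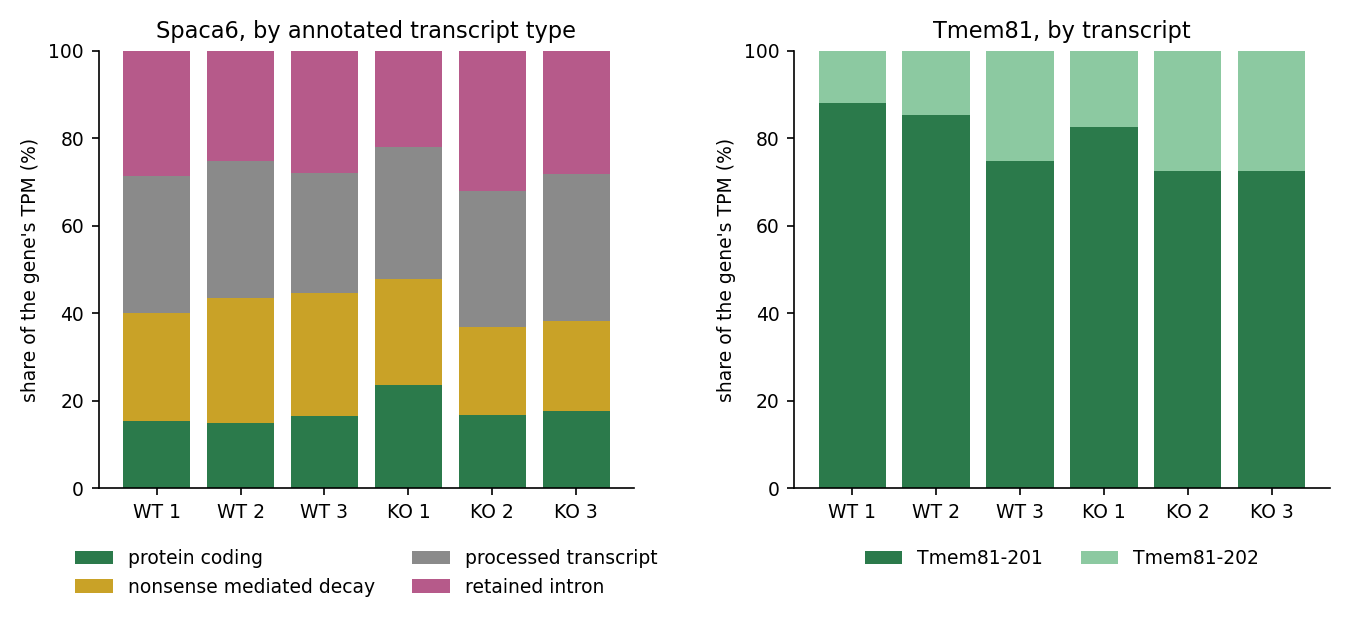
Share of the gene's TPM (%) in each library held by Spaca6 transcripts of each annotated type (left) and by the 2 transcripts of Tmem81 (right). Protein-coding transcripts make up 14.9% to 23.6% of Spaca6, and Tmem81-202 ranges from 11.8% to 27.5% with overlap between wild type (WT) and knockout (KO).

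A ratio of 2 genes within a library does not depend on how libraries are scaled, so each member was also set against Izumo1. The Spaca6 to Izumo1 ratio of TPM was 1.79, 1.66 and 1.80 in wild type and 1.68, 1.35 and 1.51 in the knockout. The Dcst2 ratio was 1.62, 1.64 and 1.36 in wild type and 1.51, 1.27 and 0.896 in the knockout, and the Dcst1 ratio was 1.40, 1.50 and 1.32 against 1.45, 1.27 and 0.971. For both Dcst genes the lowest ratio was that of the third knockout mouse, the one library in which Izumo1 exceeded them. Tmem81 kept between 0.337 and 0.404 of Izumo1 in all 6 libraries, and Tmem95 between 0.243 and 0.386. The log2 differences of knockout from wild type were -0.36 for Dcst2, -0.22 for Spaca6, -0.21 for Dcst1, -0.14 for Tmem95 and 0.00 for Tmem81. These differences share the denominator Izumo1, whose own log2 fold change from the counts was 0.19, so they are not independent of one another. Their adjusted exact permutation p were 0.5, 0.5, 0.5, 0.75 and 0.9 in that order, in a design where 3 against 3 libraries cannot give an unadjusted p below 0.1. These p therefore cannot separate a stable ratio from a changed one. The ratio of Spaca6 by counts was at that smallest p, 0.1. Dcst1 to Dcst2 was 0.867, 0.919 and 0.967 in wild type and 0.962, 1.00 and 1.08 in the knockout.

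**Figure D5:**
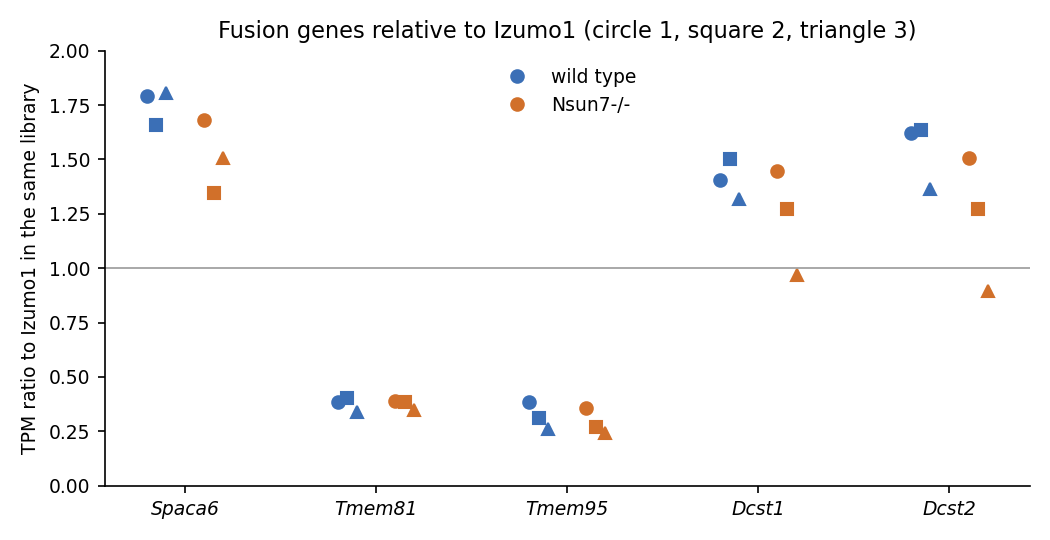
TPM of each fusion gene divided by that of Izumo1 in the same library, with wild type in blue, Nsun7 knockout in orange and the mouse number given by the shape; the grey line marks equal TPM. Tmem81 (0.337 to 0.404) varies least, and the third knockout mouse is the library in which Dcst1 (0.971) and Dcst2 (0.896) fall below Izumo1.

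Other sperm factors linked to gamete binding and fusion, from a list of 31 genes, were also measured. Not every gene of that list is required for fusion. Of these 29 matched a row and 28 were tested. By edgeR 0 were called higher and 0 lower, against 0.567% of all tested genes. There were 11 fold changes above 0 and 17 below 0, with a median of -0.05. DESeq2 also called 0 genes of the list and 0 of the 6 members, against 0.829% of the genes it tested. The 4 with the highest CPM were Tssk6, a sperm kinase (log2 fold change -0.18, edgeR adjusted p = 0.829), Acrbp, the proacrosin-binding protein (-0.19, adjusted p = 0.702), Tex101, a germ cell surface protein (-0.18, adjusted p = 0.737), and Adam3, a sperm membrane protein (0.08, adjusted p = 0.872). Spaca1, an acrosomal membrane protein, was the 1 gene of the list with an unadjusted p under 0.05 and the 1 without overlap. Over all tested genes 8.39% had such a p by edgeR and 14.3% had no overlap. Spaca1 is also among the round spermatid markers below. It was measured at 25.7, 24.5 and 25.9 CPM in wild type and at 29.0, 26.7 and 40.0 CPM in the knockout (log2 fold change 0.33, edgeR adjusted p = 0.591). Named after their values were seen, for their role, the paralogs Izumo2, Izumo3 and Izumo4 had log2 fold changes of -0.03, -0.32 and -0.23, and Llcfc1, another factor needed for fusion, had -0.22 (edgeR adjusted p between 0.647 and 0.961). Crisp1, an epididymal gene of the list, was at 29.4 CPM in the first wild-type library and at 0.162 CPM or less in the others, and was not tested.

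Of the egg-side genes, all but the tetraspanins Cd81 and Cd9 were scarce. Izumo1r, the receptor of IZUMO1, had 4 counts in all 6 libraries together. Of 7 egg-side genes 3 were tested and 0 passed by edgeR. The highest was Cd81, at means of 250 CPM in wild type and 262 CPM in the knockout (log2 fold change 0.07, edgeR adjusted p = 0.903). Cd9 was next, at 10.1 and 9.17 CPM (-0.14, adjusted p = 0.784). Many cell types express both. The zona pellucida genes Zp3 and Zp1 followed at 0.977 and 0.110 CPM in wild type. Of the other DC-STAMP family genes, Ocstamp was tested and did not pass (log2 fold change -0.37, edgeR adjusted p = 0.807), and Dcstamp had 35 counts in all and was not tested. Of 4 fusogens of other tissues 3 were tested and 0 passed by edgeR: Mymx (log2 fold change 0.00, adjusted p = 0.997), Syna (-0.05, adjusted p = 0.979) and Synb (0.96, adjusted p = 0.532), while Mymk had 7 counts in all. The Synb CPM values did not overlap between the genotypes, at 0.226 to 0.539 in wild type and 0.776 to 0.889 in the knockout. Of all tested genes 14.3% likewise had no overlap.

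Among cell type markers, those of round spermatids, in which acrosomal genes are transcribed, had 0 of 8 called by edgeR and summed to 967 to 1023 CPM in wild type and 978 to 1021 CPM in the knockout. Those of elongating spermatids had 0 of 9 called and summed to 8028 to 10596 CPM and 7256 to 10055 CPM. The largest parts of that sum were Prm2 and Prm1, at means of 3223 and 2129 CPM in wild type. Of the 9, 5 had log2 fold changes below 0 and 4 above. The 3 with an unadjusted edgeR p under 0.05 were Prm3, Tnp1 and Tnp2, at -0.53, -0.79 and -0.39. None was called of 7 for spermatogonia, 8 for spermatocytes, 7 for Sertoli cells, 5 for peritubular myoid cells and 5 for macrophages and leukocytes. Of the tested genes for blood (1 of 3) and for epididymis and oocyte (2 of 5) 0 were called. Hba-a1 and Bmp15 were at 0, and the epididymal genes Crisp1 and Defb1 were not tested. Of 6 Leydig cell markers 1 rose, Hsd3b1, a steroid hormone enzyme (edgeR adjusted p = 0.00345). The Leydig list summed to 1672 to 2821 CPM in wild type and 2117 to 4786 CPM in the knockout. Unadjusted edgeR p was under 0.05 for 3 of 7 spermatogonial, 3 of 9 elongating spermatid and 2 of 5 myoid markers. The Leydig list had 3 of 6, the round spermatid, spermatocyte and Sertoli lists 1 each, the macrophage list 0, and all tested genes 8.39%. CPM ranges did not overlap for 4 of 7 spermatogonial, 3 of 8 spermatocyte, 3 of 5 myoid and 2 of 6 Leydig markers. The round spermatid list had 1 such marker, Spaca1, and the elongating spermatid, Sertoli and macrophage lists 0, against 14.3% of all tested genes. Log2 fold changes were below 0 for all 5 myoid markers (median -0.28). They were also below 0 for 7 of 8 spermatocyte, 6 of 7 Sertoli, 4 of 7 spermatogonial and 2 of 8 round spermatid markers. They were above 0 for all 6 Leydig and all 5 macrophage and leukocyte markers (medians 0.76 and 0.24). The part of such differences in the members' values was not tested.

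The genes whose log2 CPM followed each member most closely over the 6 libraries were taken from 14679 genes with a mean of at least 1 CPM over the libraries. They were Best1 and Olfr981 for Izumo1, Gbp5 and Map7d3 for Spaca6, Bmf and Slc2a9 for Tmem81, Mast1 and Cd38 for Tmem95, Clcn6 and Samt1b for Dcst1, and Car14 and Aopep for Dcst2. Their Pearson r lay between 0.975 and 0.998. Izumo1 had 84 genes with r over 0.95, Dcst2 60, Spaca6 27, Tmem95 17, Tmem81 16 and Dcst1 12. No member was among the 2 closest genes of another. With 6 libraries that share depth and scaling, such values describe these libraries alone.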

How the data were processed

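RNA of seminiferous tubules from 3 wild-type and 3 Nsun7 knockout testes was depleted of ribosomal and globin RNA and made into libraries with the NEBNext Ultra II kit, per the labels' protocols. The submitters' processing notes name kallisto 0.50.1 and the build mm39. Which annotation release and strand setting were used is not stated in the labels or headers. The authors deposited estimated counts and TPM for 34144 gene symbols, and per-library estimated counts, lengths and TPM for 126126 transcripts, per the file headers. The deposited counts are not corrected for depth, and each TPM column is scaled to a fixed total.

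Members were matched by symbol. GENCODE M21 (GRCm38) gave transcript names, types and overlaps, and RefSeq (GRCm38.p6) the promoter sequences, which matched all 6 members. No coordinates on the authors' build are printed. The test of genotype used edgeR 4.0.16 under R 4.3.3, on gene counts and on rounded transcript estimates (TMM, filterByExpr with minimum count 10 and total 15, robust quasi-likelihood, genotype alone, Benjamini-Hochberg over all tested features, threshold 0.05). Transcript estimates of each member summed to within 0.476 counts of its gene row. Log2 fold changes are knockout over wild type. A prior count of 2 was used for log2 CPM and not for the fold changes. TPM was tested with limma 3.58.1 on log2(TPM + 1), and DESeq2 1.42.0, voom, other scalings, filters and left-out libraries were alternatives. Exact permutation tests were two-sided.

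On simulated counts for 21002 genes the gene test recovered 32% of genes changed by 0.585 on the log2 scale, 80% by 1, 94% by 2 and 100% by 3, with 3.77% false calls. For 58773 transcripts it recovered 0%, 6%, 40% and 74%, with 1.64% false calls.

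The members and lists were chosen with earlier results of these data known. All members were named, the 4 genes of highest mean CPM of each pathway list with any that passed, the 2 genes closest to each member by Pearson r (predicted genes left out), and transcripts with a mean share of at least 5%. Fimp and Frey1 matched no row.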

Additional observations from a re-analysis of the deposited data

How the results depend on the processing

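The count of 0 members called held in all 18 alternative fits, as did the 0 of the fusion and binding list, and the 0 of member transcripts held in all 9. Of 108 fold changes of members under alternatives, 94 kept their direction and 14 turned it, with adjusted p of 0.361 or above throughout. On log2 TPM with pseudocounts of 1 and 0.1 the signs turned for Spaca6 (0.28 and 0.29), Dcst1 (0.29 and 0.29) and Dcst2 (0.14 and 0.15), where the median of all genes also moved by 0.24. Leaving out 1 library gave 0.087 to 0.28 for Izumo1, 0.11 to 0.31 for Tmem81, -0.24 to -0.05 for Dcst2, -0.12 to 0.046 for Spaca6, -0.073 to 0.087 for Tmem95 and -0.13 to 0.082 for Dcst1. Leaving out both end libraries gave -0.20 for Spaca6, 0.13 for Tmem95, -0.04 for Dcst1 and -0.10 for Dcst2. The share difference of Spaca6-203, in percentage points, was 0.22 by TPM and -0.37 by estimated counts. The cause of these turns was not tested.

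Over all genes the 119 calls became 180 without the low-count filter, 203 with DESeq2, 36 and 35 on log2 TPM with pseudocounts of 1 and 0.1, 61 on centred log2 TPM, and 67 to 166 with 1 library left out (67 without the first, 78 without the second and 78 without the third wild-type library). Without both end libraries, an alternative chosen after seeing the data, there were 91. The 16 transcript calls became 0 to 6 with 1 library left out: 0 without wild-type mouse 2 or 3 or knockout mouse 2, 3 without knockout mouse 3, 4 without wild-type mouse 1 and 6 without knockout mouse 1. With mouse number as a replicate block there were 331 gene calls and 0 transcript calls, and the members' adjusted p lay between 0.498 and 0.963. Correlations between mice were taken on log2 CPM after each genotype's mean was subtracted per gene, so they are not those of whole profiles. Same-numbered mice had correlations of 0.177, -0.005 and 0.199, and mice of unlike number had -0.235 to 0.056. The values for mice 1 and 3 were thus the highest of all, and that for mouse 2 was not. The labels state no pairing, so the main test did not use the numbers. Whether they mark pairs or a batch was not tested.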
